A study of Mus musculus with 4 samples.

Results

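The fibroblast growth factor (FGF) genes described here are 9 of the 32285 genes counted in single cells of E10.5 mouse hearts. They are the ligand genes Fgf8, Fgf9 and Fgf10, the receptor genes Fgfr1, Fgfr2 and Fgfr3, and the feedback inhibitor genes Spry1, Spry2 and Spry4. They were taken by symbol, and the set was selected on the measured level of Fgf9, which was higher in cardiomyocyte-like cells of both mutant libraries. The contrast between mutant and wild type in those cells is therefore given below as a description without a test. Hearts came from C57BL/6J embryos, 2 libraries wild-type (Wt1 and Wt2) and 2 homozygous for the I383V substitution of the sterol 14-demethylase gene Cyp51, labelled Cyp51 I383V/I383V (Ho1 and Ho2). The labels list CRISPR/Cas9 as the treatment of all 4 libraries, and the substitution was made in the germline, so every cell of a Ho heart carries it. Nothing in the labels says how many embryos entered a library or whether the libraries came from separate litters, so p-values measure only the spread between these libraries. Values are unique molecular identifiers (UMIs), that is, counted mRNA molecules, given per 1000000 UMIs of the summed cells (CPM).

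FGF ligands are secreted proteins that bind receptor tyrosine kinases together with heparan sulfate and activate the RAS and ERK pathway in the receiving cell. ERK signalling induces the Sprouty genes and Dusp6, whose products damp the same pathway, so their mRNA is often read as a record of signalling. In the embryonic heart, Fgf9 from epicardium and endocardium is known to act on myocardial growth through Fgfr1 and Fgfr2, and Fgf8 and Fgf10 are known as genes of the second heart field, which adds cells to the outflow tract.

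The 250 bases before the RefSeq start of Fgf9 and of Spry2 are shown because these were the ligand and the Sprouty gene with higher levels in Tnnt2 gate cells than in the mean of the other gates and in both Ho than in both Wt libraries. They are written 5′ to 3′ from RefSeq on GRCm38.p6. The Fgf9 window is chr14:58072436-58072685 on the plus strand, upstream of the RefSeq start and within the longer span that GENCODE M21 gives the gene, and overlaps none of its exons. The Spry2 window is chr14:105896820-105897069 on the minus strand. Capitals mark matches, on both strands, to letters that heart factors and the ETS factors downstream of ERK bind: AGATAA for GATA factors, AAGTG for NKX2-5 and CCGGAA for ETS factors.
Fgf9: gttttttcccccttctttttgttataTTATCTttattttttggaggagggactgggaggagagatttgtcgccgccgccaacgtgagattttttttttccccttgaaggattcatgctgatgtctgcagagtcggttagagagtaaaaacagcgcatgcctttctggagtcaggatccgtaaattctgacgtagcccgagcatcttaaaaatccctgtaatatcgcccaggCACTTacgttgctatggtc
Spry2: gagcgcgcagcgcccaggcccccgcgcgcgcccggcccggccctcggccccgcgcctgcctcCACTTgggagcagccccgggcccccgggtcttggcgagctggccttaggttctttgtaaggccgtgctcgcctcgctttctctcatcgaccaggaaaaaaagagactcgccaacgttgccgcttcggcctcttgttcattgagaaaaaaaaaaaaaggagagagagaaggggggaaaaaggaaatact
The Fgf9 window held 1 match to the GATA letters, found in 9.99% of 32851 promoter windows of the same length, and 1 to the NKX2-5 letters, found in 40.7%. The Spry2 window held 1 match to the NKX2-5 letters. Neither held the ETS letters, which 12% of the windows contained. A match is a description of the letters and not of binding.

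After filters, the libraries Wt1, Wt2, Ho1 and Ho2 held 8908, 7154, 6980 and 6126 cells, from which 97179971, 105282895, 113478594 and 98379564 UMIs were counted. Each cell was placed by 1 marker gene, and cells meeting more than 1 gate were left out. Those left out numbered 742, 1010, 1244 and 728 in Wt1, Wt2, Ho1 and Ho2, and 3510, 1683, 752 and 1660 cells met no gate. The Tnnt2 gate (cardiac troponin T) held 1603, 2478, 3266 and 2303 cells of Wt1, Wt2, Ho1 and Ho2. The Cdh5 gate (VE-cadherin) held 397, 641, 526 and 286, and the Hapln1 gate (a matrix link protein of the cushions) held 707, 858, 1072 and 591. The Crabp1 gate, a marker of pharyngeal mesenchyme and neural crest, held 1431, 159, 19 and 122 cells. The Upk3b gate (a uroplakin of the epicardium) held 122, 155, 101 and 178, and the Epcam gate (epithelium) 396, 170, 0 and 258 cells. All gates but Crabp1 and Epcam thus held cells of every library over the minimum of 20. The 19 Crabp1 gate cells of Ho1 fell under it and stayed out of means and fits, so that Ho stood on Ho2 alone in the Crabp1 and Epcam gates.

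The gates were checked with lists of other markers. In the Tnnt2 gate the 10 cardiomyocyte genes, led by Myl7, summed to 59947.6, 61166.1, 59712.3 and 59454.8 CPM in Wt1, Wt2, Ho1 and Ho2. Each list of gate markers summed highest in its own gate in every library that had cells there. The Hapln1 gate carried 2311 to 2541 CPM of the cushion list, and also 554 to 721 CPM of the endothelial list, against 2008 to 2688 CPM in the Cdh5 gate. The Epcam gate differed in makeup between libraries. Pax9, a gene of pharyngeal endoderm, had 70.2, 6.28 and 3.62 CPM in Wt1, Wt2 and Ho2, and Nkx2-1, a gene of thyroid and lung endoderm, had 21.2, 80.4 and 113 CPM. The Crabp1 gate differed in makeup too. Of its pharyngeal markers, Dlx5 had 45.1, 3.65 and 9.46 CPM in Wt1, Wt2 and Ho2. Foxf1 had 19.2, 61.5 and 86.5 CPM and Isl1 68.8, 309 and 203 CPM in the same order. Ho1 stood apart in Xist, the RNA of X inactivation made in female cells, with 28877 UMIs against 5, 4 and 2 in Wt1, Wt2 and Ho2, and in holding few Crabp1 and no Epcam gate cells. Between 9 and 28 cell barcodes were shared by any pair of libraries among the cells used.

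Among the ligands, Fgf9 mRNA was found in epicardial and myocardial gates and was close to absent from endothelial and cushion gates. In the Upk3b gate Fgf9 (ENSMUSG00000021974, chromosome 14 of GRCm38 from 58070547 to 58112720) had 12.4, 14.2, 11.1 and 20.8 CPM in Wt1, Wt2, Ho1 and Ho2. Tnnt2 gate sums of Fgf9 were 5.35, 5.74, 8.69 and 9.60 CPM in the same order, from 107, 237, 495 and 396 UMIs. In the Cdh5 gate it had at most 0.398 CPM and in the Hapln1 gate at most 0.405 CPM, from 7 and 9 UMIs over all 4 libraries. Crabp1 gate levels were 2.55, 4.87 and 3.38 CPM in Wt1, Wt2 and Ho2, below every Tnnt2 sum and above every Cdh5 and Hapln1 sum. The Upk3b gate also carried 3259, 2663, 4809 and 3299 CPM of the cardiomyocyte list, whose part in its Fgf9 level was not tested. Every Upk3b sum lay above every Tnnt2 sum, and every Tnnt2 sum above every Cdh5 and Hapln1 sum. Fgf9 was called higher than the mean of the other gates in the Upk3b and Tnnt2 gates and lower in the Cdh5 and Hapln1 gates by edgeR (quasi-likelihood test with Benjamini-Hochberg adjustment). The 3 ligand genes passed the filter on low counts through the gates where they are high, and their mean over the other gates includes sums near 0, where the size of a fitted fold change depends on the prior count. No fold change against the other gates is therefore given beside the levels of these ligands, and their calls add nothing to the levels. Those listed further below under the alternatives show only how far the fitted values move. In the Epcam gate Fgf9 had 14.5, 0.628 and 2.07 CPM in Wt1, Wt2 and Ho2, and it was called higher there only with Wt1 included.

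Fgf8 (ENSMUSG00000025219, chromosome 19 from 45736798 to 45742915) was the ligand gene with the most uneven levels. Its levels in the Tnnt2 gate were 6.36, 4.48, 3.11 and 5.36 CPM in Wt1, Wt2, Ho1 and Ho2, all above every sum of the Cdh5, Hapln1, Crabp1 and Upk3b gates, of which the highest was 1.08 CPM. The Cdh5, Hapln1 and Upk3b gates held 5, 4 and 5 UMIs of Fgf8 over all 4 libraries. In the Epcam gate of Wt1 Fgf8 reached 124 CPM, with 539 UMIs in 125 of 396 cells, while 1 UMI was found in Wt2 and 0 in the 258 cells of Ho2, which allows a share of cells with a UMI of up to 1.16% and does not limit the share that express the gene. With cells thinned to 2000 UMIs, 12.1% of 380 cells of Wt1 had one (46 cells), and 0 of 164 in Wt2 and of 253 in Ho2. The 10 cells with the most Fgf8 held 168 of these UMIs, so the signal was spread over many cells. The Wt1 library was also the one whose Epcam gate held Pax9, in 124 of its cells against 7 in Wt2 and 12 in Ho2. The call of Fgf8 as higher in the Epcam gate by edgeR rested on Wt1 and was lost without it (adjusted p-value 0.540).

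Fgf10 (ENSMUSG00000021732, chromosome 13 from 118669791 to 118792115) was scarce. It had 1.95, 0.726, 1.19 and 1.79 CPM in the Tnnt2 gate of Wt1, Wt2, Ho1 and Ho2 and 2.61, 1.83 and 0.676 CPM in the Crabp1 gate of Wt1, Wt2 and Ho2. In the Hapln1 gate a UMI of Fgf10 was found once over all 4 libraries. In the Crabp1 gate Wt1 held 41 of the 45 UMIs, and the Cdh5 and Epcam gates held 6 UMIs each.

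Cells of the Tnnt2 gate were further divided by Myl2, the light chain gene of ventricular myosin, at 10 UMIs per 10000, and separately by Isl1, a factor of second heart field cells, at 1 per 10000. Both divisions were chosen after values were seen and carry no test. Cells at or over the Myl2 limit made up 44.5%, 53.0%, 57.2% and 43.4% of the gate in Wt1, Wt2, Ho1 and Ho2. They held 88.8%, 93.7%, 93.9% and 93.2% of its Fgf9 UMIs, so in every library the Fgf9 of the gate lay mainly in Myl2-rich cells. Fgf9 had 11.01, 9.83, 13.6 and 18.8 CPM in these cells and 1.06, 0.802, 1.32 and 1.25 CPM in the others. Fgf8 had 5.10, 3.90, 3.10 and 4.49 CPM in Myl2-rich cells and 7.31, 5.18, 3.11 and 6.14 CPM in the others. It had 22.2, 26.9, 14.4 and 23.5 CPM in cells at or over the Isl1 limit and 3.64, 2.19, 2.53 and 2.82 CPM in those under it. In cells at or over the Isl1 limit Fgf9 had 1.02, 1.57, 0 and 0.791 CPM, from 3, 6, 0 and 4 UMIs. The levels of Fgf9 and Fgf8 were thus highest in different subsets of the Tnnt2 gate in each library. Fgf10 had 3.94, 0.841, 1.78 and 3.12 CPM in Myl2-rich cells and at most 0.601 CPM in the others.

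**Figure D1:**
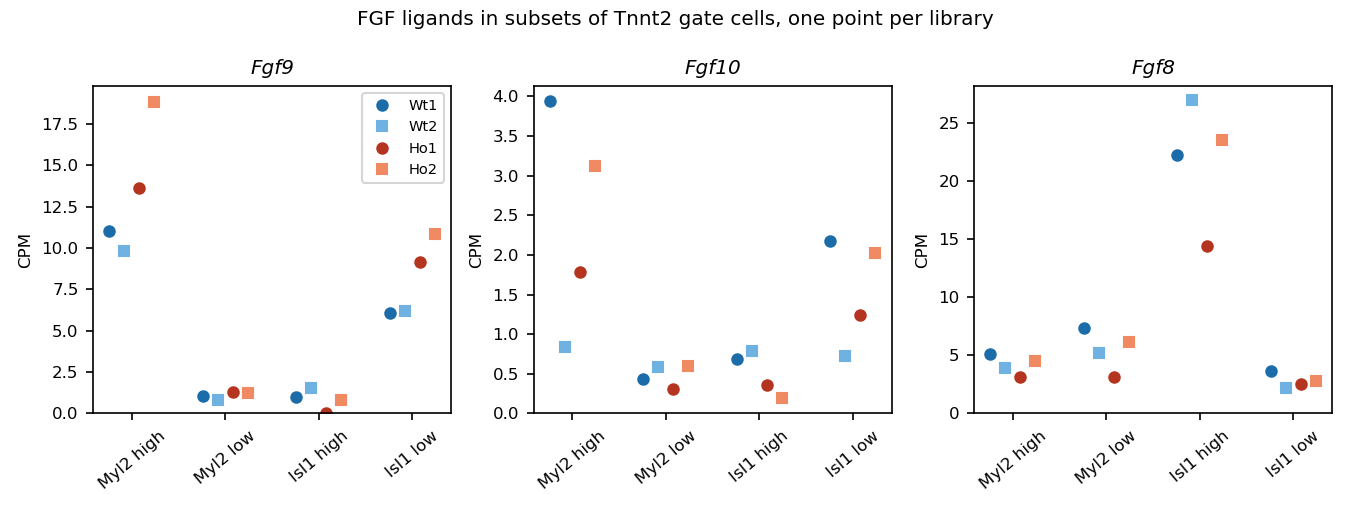
CPM (vertical axis, linear) of Fgf9, Fgf10 and Fgf8 in Tnnt2 gate cells at or over (high) and under (low) the limits of 10 UMIs of Myl2 and 1 of Isl1 per 10000, with 1 point per library and no error bars. Fgf9 lies between 9.83 and 18.8 CPM in Myl2-rich cells and at most at 1.32 CPM in the others, whereas Fgf8 lies between 14.4 and 26.9 CPM in Isl1-rich cells.

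The receptor genes were spread over more gates than the ligands, each with its own order. Fgfr1 (ENSMUSG00000031565, chromosome 8 from 25513654 to 25575718) had 34.0 CPM ± 5.71 (SD, n = 3) in the Crabp1 gate, 26.9 ± 4.25 (SD, n = 4) in the Cdh5 gate, 24.3 ± 7.89 (SD, n = 3) in the Epcam gate and 21.4 ± 0.288 (SD, n = 4) in the Hapln1 gate. Neighbours in this order overlapped. Below them came the Tnnt2 gate, with 11.8, 11.6, 12.9 and 14.0 CPM in Wt1, Wt2, Ho1 and Ho2, and the Upk3b gate, with 7.41, 8.32, 2.14 and 7.36 CPM. These 2 gates overlapped neither with each other nor with the rest. The log2 fold change against the mean of the other gates was 0.89 for the Crabp1 gate (standard error, SE, 0.17, adjusted p-value 0.00037) and -1.78 for the Upk3b gate (SE 0.22, adjusted p-value 1.47e-06, edgeR).

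Fgfr2 (ENSMUSG00000030849, chromosome 7), whose epithelial isoform is the receptor for Fgf10, was led by the Epcam gate. It had 43.3, 122 and 80.5 CPM there in Wt1, Wt2 and Ho2, above all sums of the other gates, and a log2 fold change against their mean of 2.28 (SE 0.16; adjusted p-value 3.65e-10, edgeR). The Upk3b gate followed with 29.1 CPM ± 1.92 (SD, n = 4), the Crabp1 gate with 27.3 ± 11.8 (SD, n = 3) and the Hapln1 gate with 24.5 ± 2.18 (SD, n = 4), and these 3 overlapped. The Tnnt2 gate stood lower, with 8.96, 9.30, 9.14 and 9.48 CPM in Wt1, Wt2, Ho1 and Ho2. The Cdh5 gate was lowest with 2.64, 3.33, 3.84 and 2.39 CPM (log2 fold change -3.00, SE 0.21, adjusted p-value 2.35e-10, edgeR). Fgfr1 and Fgfr2 therefore lay in opposite order between the Cdh5 and the Upk3b gate. Fgfr2 was called higher in the Hapln1 gate (log2 fold change 0.47, adjusted p-value 0.0100), but with cells meeting several gates kept it was called lower there (-0.36, adjusted p-value 0.0347, edgeR). Annotated exons of Fgfr2 overlap those of Ctbp2 on the same strand, so molecules from that stretch cannot be assigned with certainty.

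Fgfr3 (ENSMUSG00000054252, chromosome 5 from 33721674 to 33737068) was lower in count. It had 10.9, 6.17, 8.55 and 9.47 CPM in the Upk3b gate of Wt1, Wt2, Ho1 and Ho2, and 1.23, 0.857, 0.987 and 1.39 CPM in the Cdh5 gate. The Upk3b gate stood higher than the mean of the other gates by 1.93 on the log2 scale (SE 0.24, adjusted p-value 1.94e-06) and the Cdh5 gate lower, with -1.59 (SE 0.29, adjusted p-value 0.00012, edgeR). It was called higher in the Hapln1 gate too, with 5.94, 4.35, 3.44 and 4.84 CPM, and that call was lost when cells meeting several gates were kept (log2 fold change 0.31, adjusted p-value 0.132, edgeR).

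The Sprouty genes, which encode inhibitors of receptor signalling, differed from each other. Spry1 (ENSMUSG00000037211, chromosome 3 from 37639947 to 37644598) had 20.3, 35.8, 23.1 and 30.8 CPM in the Upk3b gate of Wt1, Wt2, Ho1 and Ho2 and 20.7, 22.0 and 15.5 CPM in the Epcam gate of Wt1, Wt2 and Ho2. Its lowest sums were those of the Cdh5 gate, with 1.41, 1.14, 0.548 and 2.39 CPM. The log2 fold change against the mean of the other gates was 2.44 for the Upk3b gate (SE 0.16, adjusted p-value 2.61e-10), 1.45 for the Epcam gate (SE 0.20, adjusted p-value 4.49e-06) and -2.89 for the Cdh5 gate (SE 0.25, adjusted p-value 4.81e-09, edgeR).

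Spry4 (ENSMUSG00000024427, chromosome 18) ran the other way in the Cdh5 and Epcam gates. It had 9.85, 7.72, 12.8 and 9.56 CPM in the Cdh5 gate of Wt1, Wt2, Ho1 and Ho2 and 2.30, 1.88 and 0.518 CPM in the Epcam gate of Wt1, Wt2 and Ho2. The log2 fold change was 1.32 for the Cdh5 gate (SE 0.19, adjusted p-value 7.04e-06) and -2.08 for the Epcam gate (SE 0.39, adjusted p-value 0.000195, edgeR). In the Upk3b gate, where the mean of Spry1 was highest, Spry4 was not called (0.055, SE 0.28, adjusted p-value 0.909, edgeR). Over the 22 sums, on log2(CPM + 1) centred within libraries, the Pearson correlation of Spry1 and Spry4 was -0.66, that of Spry1 and Fgfr2 0.80, and that of Spry4 and Fgfr2 -0.76. Sums of 1 gate share their cell type and sums of 1 library their depth, so these are descriptions.

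Spry2 (ENSMUSG00000022114, chromosome 14 from 105891947 to 105896819) was the most even of the 3. Its mean ran from 24.4 CPM ± 6.84 (SD, n = 4) in the Cdh5 gate to 42.4 ± 5.83 (SD, n = 4) in the Tnnt2 gate, and every neighbour in the order of gates overlapped. The Tnnt2 gate was called higher than the mean of the others (log2 fold change 0.73, SE 0.14, adjusted p-value 7.36e-05, edgeR). The call of the Cdh5 gate as lower (-0.43, adjusted p-value 0.0331) was lost without Wt1 (-0.26, adjusted p-value 0.222) and without Ho2 (-0.31, adjusted p-value 0.194), by edgeR.

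In counts of calls, 2 of the 6 receptor and Sprouty genes were higher in the Tnnt2 gate than in the mean of the other gates, where 36.5% of 13792 genes tested were called higher, and 4 were lower (31.5% of all genes). In the Cdh5 gate 2 were higher (27.7% of all genes) and 4 lower (25.7%), and in the Hapln1 gate 3 were higher (25%) and 1 lower (20.2%). In the Crabp1 gate 2 were higher (15.8%) and 0 lower (19.9%), in the Upk3b gate 3 were higher (20.4%) and 1 lower (19%), and in the Epcam gate 2 were higher (24.5%) and 2 lower (23%). Calls of the 3 ligand genes are left out of these counts for the reason given above. Some of these calls were lost when 1 library was left out, in some cases with little change in the fold change. Fgfr1 in the Tnnt2 gate, at -0.37, had -0.28 without Wt1 (adjusted p-value 0.0574). Fgfr3 there, at -0.62, had -0.46 without Wt2 (0.0789) and -0.55 without Ho2 (0.0734), and Fgfr3 in the Epcam gate, at -1.14, had -0.89 without Wt1 (0.0584) and -1.12 without Ho2 (0.109). Spry1 in the Crabp1 gate, at 0.73, had 0.31 without Wt1 (0.565), and Spry4 in the Hapln1 gate, at 0.53, had 0.39 without Ho1 (adjusted p-value 0.180, edgeR). The Spry4 call was also lost with doubled limits (0.53, adjusted p-value 0.0536), with doublets kept (0.43, 0.0505) and with cells of both the Cdh5 and Hapln1 gates counted in the Cdh5 gate (0.36, 0.161), and that of Spry2 in the Cdh5 gate without the library block (-0.39, 0.108) and with cells of several gates kept (-0.33, adjusted p-value 0.0696, edgeR). The gates are different cell types, and a large share of all genes differed between them, so these counts are to be read against those shares. The endothelial gate was the one with the lowest mean level of Fgfr2, Fgfr3, Spry1 and Spry2 and the highest of Spry4.

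**Figure D2:**
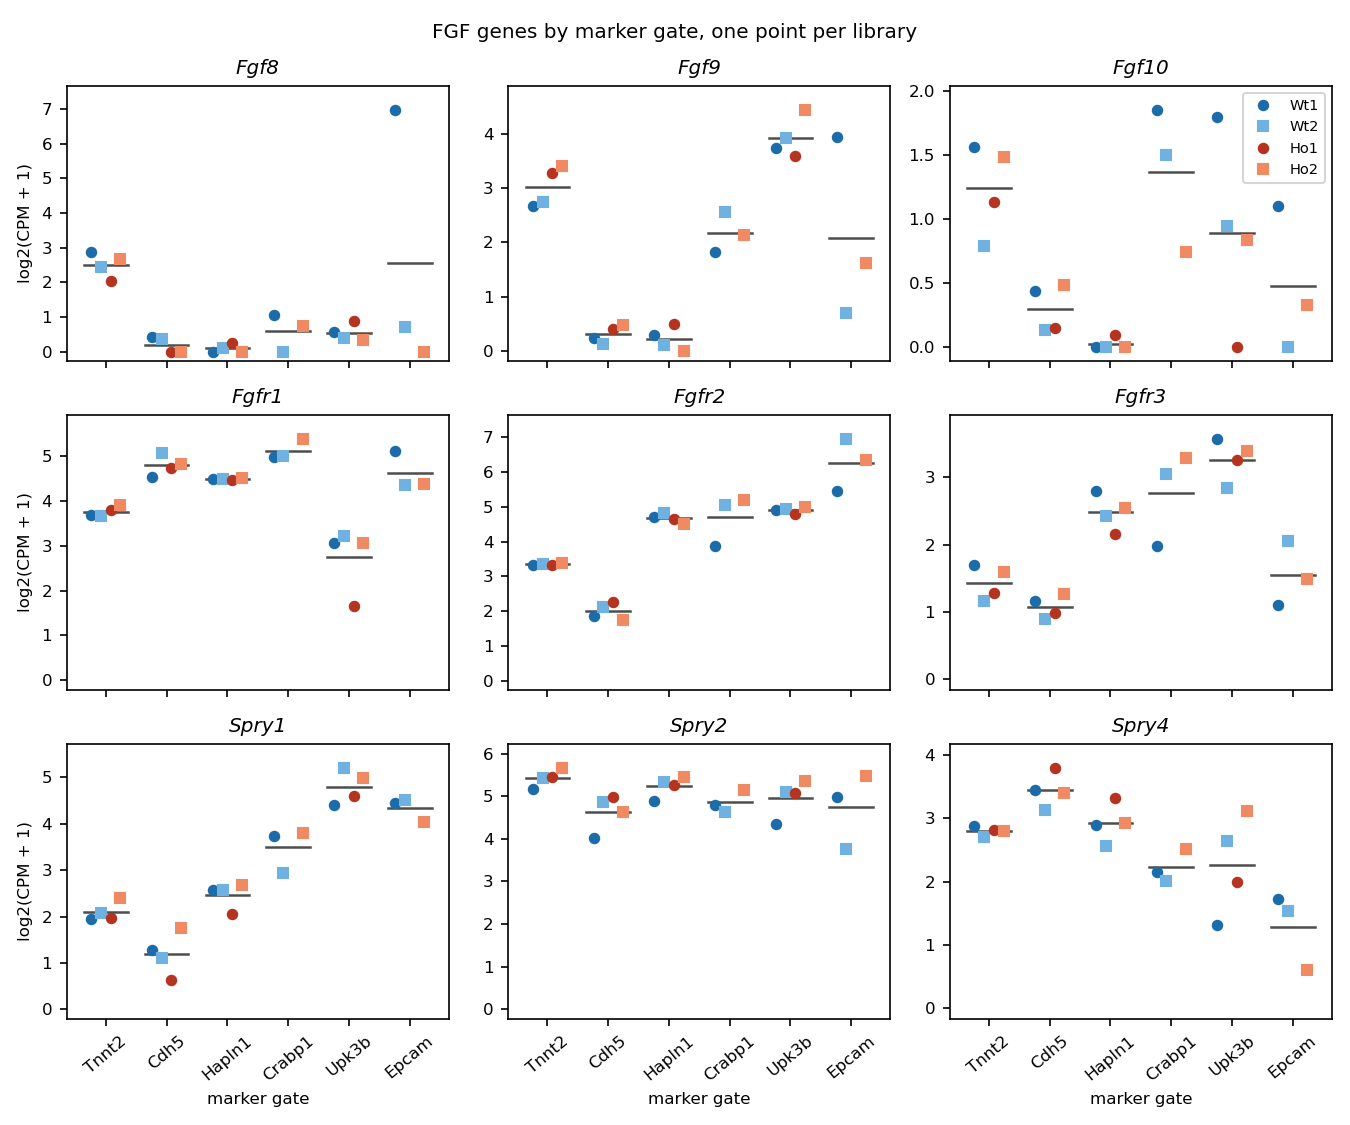
log2(CPM + 1) (vertical axes, scaled per gene) of the 9 genes in the 6 marker gates (horizontal axis), with 1 point per library (blue for Wt, red for Ho) and the mean of the points as a bar; sums of fewer than 20 cells are not drawn. Fgf9 is highest in the Upk3b and Tnnt2 gates, Spry1 falls where Spry4 is high, and the Fgf8 value of the Epcam gate is set by Wt1.

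Between Ho and Wt, the Tnnt2 gate is the contrast that chose these genes. The mean level of Fgf9 was 5.55 CPM (SD 0.272) over the 2 Wt and 9.15 CPM (SD 0.649) over the 2 Ho libraries. That is a ratio of 1.65 and a log2 fold change of 0.70. Both Ho values above both Wt values is the order by which the set was selected. In Myl2-rich cells alone the ratio was 1.56, with means of 10.4 CPM (SD 0.837) and 16.2 CPM (SD 3.71). Both Ho libraries were also above both Wt libraries for Fgfr1, with means of 11.7 (SD 0.149) in Wt and 13.5 CPM (SD 0.763) in Ho, and for Spry2, with 38.5 (SD 4.61) and 46.2 CPM (SD 4.54). In total 18.3% of 14573 genes tested showed this order in the Tnnt2 gate. For Fgf8 the groups overlapped, with means of 5.42 CPM (SD 1.33) in Wt and 4.23 CPM (SD 1.59) in Ho, and so they did for Fgf10, Fgfr2, Fgfr3, Spry1 and Spry4. Of all genes tested there, 0% were called at an adjusted p-value under 0.05 by edgeR, and 908 had an unadjusted p-value under 0.05. These counts describe the gate and are not read as a test of the 9 genes.

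Tnnt2 gate cells differed in depth, and the median was 12236 UMIs for Wt1, 17387.5 for Wt2, 17578.5 for Ho1 and 18303 for Ho2. After thinning each cell to 2000 UMIs, a UMI of Fgf9 was found in 0.959% of 1355 cells of Wt1 (exact 95% interval 0.512% to 1.64%) and in 0.962% of 2182 cells of Wt2 (0.597% to 1.47%). In Ho1 the share was 1.78% of 3026 cells (1.34% to 2.32%), and in Ho2 1.82% of 2146 cells (1.30% to 2.48%). These shares come from the same molecules as the CPM that chose the set, and the intervals of the Wt and the Ho libraries overlapped. Cells under 2000 UMIs, which numbered 248, 296, 240 and 157, did not enter. At full depth the shares came to 5.30%, 7.59%, 11.5% and 11.2%. Cdh5 gate cells, in which Fgf9 was close to absent, had a thinned share of 0 in all 4 libraries, at median depths of 13391, 14940, 16130.5 and 15183.5 UMIs. The Cdh5 limit was met by 1008, 1544, 1668 and 921 cells of Wt1, Wt2, Ho1 and Ho2, of which 397, 641, 526 and 286 were kept. With cells meeting both the Cdh5 and Hapln1 limits counted in, the gate held 1000, 1533, 1630 and 917. Most cells left out thus met the Hapln1 limit. Endocardium, named above as a source of Fgf9, was not identified among kept or left-out cells, so its Fgf9 level was not tested. Whether the few Fgf9 UMIs of the Cdh5 gate are free RNA was not tested. The upper limits that 0 cells allow there were 0.769%, 0.472%, 0.578% and 1.06%. At full depth 1, 1, 3 and 2 UMIs of Fgf9 were found in the Cdh5 gate, or 0.176, 0.0952, 0.329 and 0.398 CPM, so that both Ho libraries stood above both Wt libraries there too, as did 11.4% of the genes passing the filter in that gate, which Fgf9 did not. Fgf8 had 2, 3, 0 and 0 UMIs there, an order of Ho below Wt that 21.8% of those genes showed. Intervals and limits cover counting error only.

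**Figure D3:**
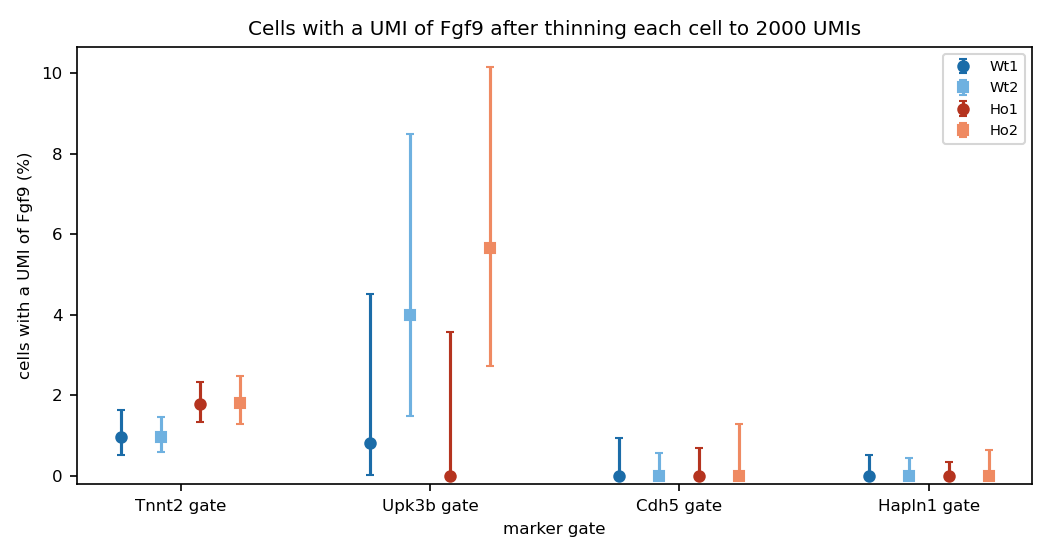
Percent of cells with a UMI of Fgf9 (vertical axis) after thinning each cell to 2000 UMIs, by marker gate and library, with exact 95% binomial intervals as bars. In the Tnnt2 gate the Ho libraries lie at 1.78% and 1.82% and the Wt libraries at 0.959% and 0.962%, and the share is 0 in the Cdh5 and Hapln1 gates.

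Markers of other cells in the Tnnt2 gate were set beside the Fgf9 values. Upk3b had 0.901, 0.702, 0.755 and 0.703 CPM in the Tnnt2 gate of Wt1, Wt2, Ho1 and Ho2, against 557 to 785 CPM in its own gate. The list of 10 epicardial genes, led by Krt19, summed to 61.4, 60.8, 56.5 and 81.5 CPM, with 1 gene at 0 in Wt1, Wt2 and Ho1, and the 10 endothelial genes, led by Egfl7, to 62.8, 56.9, 61.8 and 57.3 CPM. Of all genes tested in this gate, 18.3% had both Ho libraries above both Wt libraries. Of single markers, 3 of the 10 epicardial and 2 of the 10 endothelial genes had this order. Among them, the Wilms tumour gene Wt1 had 2.10, 2.74, 3.46 and 4.00 CPM, Sema3d had 1.00, 1.28, 1.56 and 1.82 CPM, and Npr3 had 3.60, 2.91, 5.12 and 5.19 CPM in Wt1, Wt2, Ho1 and Ho2. The same order was shown by 4 of 10 cushion markers, 1 of 10 cardiomyocyte markers and 5 of 5 blood genes, which summed to 3.50, 8.28, 225 and 13.7 CPM. Both Ho libraries were below both Wt libraries for 3 of 10 pharyngeal, 2 of 10 epithelial and 3 of 6 macrophage markers. The same held for 1 of 10 endothelial and 1 of 10 cushion markers. The share of all genes with this reverse order in the Tnnt2 gate is not given, so these counts are not read further. The cushion marker with it was Cthrc1, with 21.3, 23.5, 11.5 and 14.2 CPM. The part of these cells or their RNA in the Fgf9 values was not tested. A higher share of cells with Fgf9 and more Fgf9 mRNA per cell cannot be told apart in a summed count. At full depth, 73, 150, 283 and 169 cells of Wt1, Wt2, Ho1 and Ho2 held 1 UMI of Fgf9. Cells with 2 UMIs numbered 7, 29, 69 and 57.

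No FGF gene was called between Ho and Wt by edgeR in the gates outside the selection. The Cdh5 gate had 5 of the 9 genes over the filter on low counts, and 0% of 11733 genes were called (414 at an unadjusted p-value under 0.05). The Hapln1 gate had 6 of the 9, and 0.024% of 12483 genes were called (699 unadjusted). The Crabp1 gate had 5 of the 9, and 0% of 9649 genes were called (179 unadjusted). Its Ho side is Ho2 alone, assumed to vary like the Wt libraries. On simulated sums 6 of 200 genes changed by 1 on the log2 scale were recovered there, so the lack of calls in this gate says little. Of 200 genes changed by 0.5, 6 were recovered in the Cdh5 and 59 in the Hapln1 gate. Most differences of that size would thus be missed there too. The filter removed all 3 ligand genes in each of the Cdh5, Hapln1 and Crabp1 gates. Fits in the Upk3b and Epcam gates lay outside the planned tests. They called 0.0299% of 10049 genes in the Upk3b gate (456 unadjusted) and 0.705% of 12065 in the Epcam gate (858 unadjusted), with 0 of the 7 FGF genes passing the filter in each. Without the filter, again 0 of the 9 were called in the Cdh5 or Hapln1 gate. DESeq2 was run only on genes passing the filter, and it called 0 of the 5 and 6 FGF genes there. Ho1 carried more RNA of other cells in the Cdh5 gate than the other libraries, with 292, 467, 1677 and 321 CPM of the cardiomyocyte list, led by Myl7, and 121, 68.5, 670 and 98.7 CPM of the blood list, led by Hbb-y, in Wt1, Wt2, Ho1 and Ho2. Their part in these values was not tested. Without Ho1, and likewise without Ho2, the Cdh5 gate has 1 Ho library. More genes were then called in both fits, none of them an FGF gene.

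The largest of these differences in the Hapln1 gate was that of Spry4, with 6.39 and 4.92 CPM in Wt1 and Wt2 and 8.97 and 6.59 in Ho1 and Ho2. The Ho libraries were the higher ones, as for 15% of all genes in this gate, but the gap between Wt1 and Ho2 was smaller than the spread within either genotype. The log2 fold change was 0.52 (SE 0.22; adjusted p-value 0.868, edgeR). In the Cdh5 gate it was 0.44 (SE 0.24; adjusted p-value 0.999, edgeR) and the groups overlapped. Fgfr2 had both Ho libraries below both Wt libraries in the Hapln1 gate, an order that 19.3% of all genes showed, with 25.1 and 27.1 CPM in Wt1 and Wt2 and 23.9 and 21.9 CPM in Ho1 and Ho2, a log2 fold change of -0.17 (SE 0.11, adjusted p-value 0.911, edgeR). In the Crabp1 gate Fgfr2 had 13.8 and 32.3 CPM in Wt1 and Wt2 and 35.8 CPM in Ho2, the only Ho library there. The log2 fold change was 0.74 (SE 0.46), and the Wt libraries lay further apart than Wt2 and Ho2. The makeup of this gate differed between the libraries, and its part in the Fgfr2 values was not tested.

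Spry2 was higher on average in Ho than in Wt in each of the 6 gates, and was not called in the Cdh5, Hapln1 or Upk3b gate. In cells that met no gate Spry2 was lower on average in Ho, with 22.8, 30.3, 22.3 and 25.5 CPM in Wt1, Wt2, Ho1 and Ho2, and the groups overlapped. Its log2 fold change was 0.37 (SE 0.27) in the Cdh5, 0.24 (SE 0.14) in the Hapln1 and 0.47 (SE 0.23) in the Upk3b gate. The adjusted p-values were 0.999, 0.898 and 0.994 from edgeR. With Ho2 alone against both Wt libraries, the log2 fold change was 0.42 (SE 0.39) in the Crabp1 and 1.06 (SE 0.42) in the Epcam gate. The lowest sum came from Wt1 in the Tnnt2, Cdh5, Hapln1 and Upk3b gates, with 35.2, 15.1, 28.5 and 19.3 CPM. Wt2 lay within the range of the Ho libraries in the Cdh5, Hapln1 and Upk3b gates, with 28.0, 39.2 and 33.3 CPM against 30.8 and 23.7, 37.2 and 42.6, and 32.9 and 39.7 CPM in Ho1 and Ho2. Wt1 was also the library with the lowest depth per cell, and the part of depth was not tested. The gates come from the same 4 libraries, so the 6 directions are not independent. The difference of the genotype effects between the Cdh5, Hapln1 and Crabp1 gates was not called for any gene (0% of 12882 tested, edgeR), with the Crabp1 term resting on Ho2 alone.

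The mean of Fgf9 in the Upk3b gate was 13.3 CPM (SD 1.30) over the 2 Wt and 15.9 CPM (SD 6.82) over the 2 Ho libraries, and the groups overlapped. Fgfr1 and Fgf10 had both Ho libraries below both Wt libraries there, an order that 21.7% of genes passing the filter in that gate showed. The Ho1 value of Fgfr1, 2.14 CPM, stood on 5 UMIs, and Fgf10 there stood on 5 and 3 UMIs in the Wt and 0 and 3 in the Ho libraries. In the Epcam gate Fgf8 and Fgf9 were set by Wt1. With 539 UMIs of Fgf8 in Wt1, 1 in Wt2 and 0 in Ho2, the only Ho library there, its fit between Ho and Wt says nothing of the genotype and no p-value is given.

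**Figure D4:**
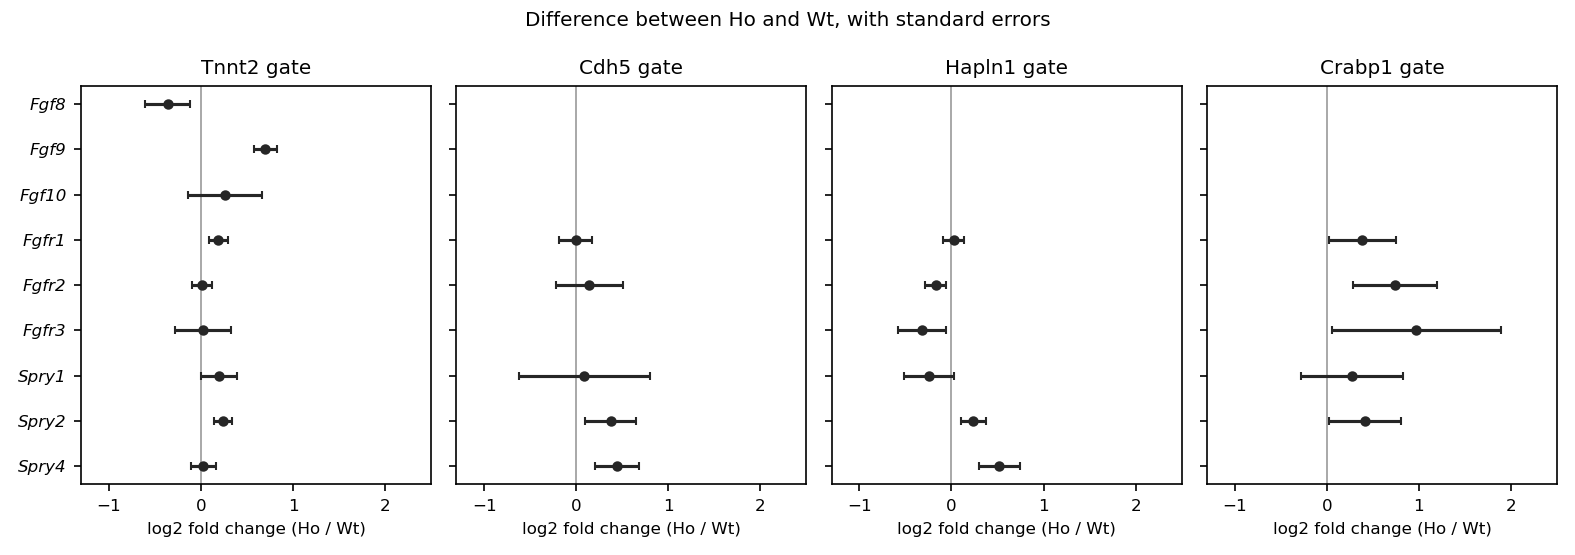
log2 fold change of Ho over Wt (horizontal axis) with standard errors from edgeR for the 9 genes in 4 marker gates. Genes without a point fell under the filter on low counts, and points and bars of the Tnnt2 gate are a description without a test. In the Tnnt2 gate, where the contrast chose the genes, Fgf9 lies at 0.70, and none of the 9 genes was called in the Cdh5, Hapln1 and Crabp1 gates.

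Other genes of the pathway were taken from fixed lists. Of 19 other ligand genes, 7 passed the filter over the gates. Fgf18 was led by the Upk3b gate, with 50.2 CPM ± 5.27 (SD, n = 4). Fgf13, whose product acts inside the cell, was led by the Tnnt2 gate, with 13.4 CPM ± 0.851 (SD, n = 4). As for the ligand genes above, no fold change against the other gates is given for these 2 genes. Fgf5 had 5.78 CPM ± 4.24 (SD, n = 4) in the Upk3b gate and no UMI in the Cdh5 gate. The Upk3b gate was thus the one with the highest mean level of Fgf9, Fgf18 and Fgf5. Of the 4 other receptor and co-receptor genes, 1 passed the filter: Fgfrl1, a receptor without a kinase, with 55.1 CPM ± 5.30 (SD, n = 4) in the Hapln1 gate (log2 fold change 1.47, adjusted p-value 2.73e-10, edgeR) and 11.8 ± 1.96 (SD, n = 4) in the Tnnt2 gate. Fgfr4 and Kl, the others of highest level in that list, did not exceed a mean of 1.72 and 0.295 CPM in any gate.

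Of 10 other genes listed as feedback regulators, not all of them inhibitors, 8 were tested. In the Tnnt2 gate 4 were called higher and 2 lower, where 36.5% and 31.5% of all genes were. In the Hapln1 gate 5 were called higher and 2 lower (25% and 20.2% of all genes). Dusp6, the ERK phosphatase, had 36.1 CPM ± 6.23 (SD, n = 4) in the Cdh5 gate, 34.2 ± 4.48 (SD, n = 4) in the Hapln1 gate and 10.3 ± 2.20 (SD, n = 3) in the Epcam gate, where it was lower than the mean of the others (log2 fold change -1.59, adjusted p-value 3.92e-07, edgeR). Flrt3 was lowest in the Cdh5 gate with 3.86 ± 1.25 (SD, n = 4), and Cbl ran from 16.0 to 27.2 CPM in means. Between Ho and Wt, the list's median log2 fold change came to 0.16 in the Tnnt2, 0.11 in the Cdh5, 0.055 in the Hapln1 and 0.10 in the Crabp1 gate, beside 0.0035, 0.0019, 0.0021 and -0.015 over all genes tested. It was -0.035 in the Upk3b and -0.42 in the Epcam gate, beside -0.0025 and -0.025, so the gates differed in sign, and 0 of its genes were called in any of the 6. Dusp6 had 0.40 (SE 0.14) in the Cdh5 gate and 0.34 (SE 0.10) in the Hapln1 gate, with adjusted p-values of 0.999 and 0.742 from edgeR.

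Of the 10 target genes all were tested, with 7 called higher and 1 lower in the Hapln1 gate (25% and 20.2% of all genes) and 1 and 7 in the Epcam gate (24.5% and 23%). Ets1 was led by the Cdh5 gate at 120 CPM ± 5.82 (SD, n = 4), Fos by the Tnnt2 gate at 265 ± 45.5 (SD, n = 4), and Ccnd1 by the Upk3b gate at 320 ± 54.0 (SD, n = 4). Among 18 adaptor genes, which carry the signal from receptor to ERK, 1 was higher and 7 lower in the Crabp1 gate (15.8% and 19.9% of all genes). In the Tnnt2 gate 8 were higher and 5 lower, beside 36.5% and 31.5% of all genes. Hras stood there at 199 CPM ± 11.2 (SD, n = 4, log2 fold change 0.36, adjusted p-value 2.31e-06, edgeR), and Map2k2 ran from 163 to 250 CPM in the means of the gates. Of 18 heparan sulfate genes, 10 were lower and 7 higher in the Tnnt2 gate (31.5% and 36.5% of all genes). In the Epcam gate 1 was lower and 9 were higher (23% and 24.5%). In the Cdh5 gate 10 were lower and 3 higher, beside 25.7% and 27.7% of all genes. Gpc3, a glypican, had 14.6 CPM ± 2.83 (SD, n = 4) there and 424 ± 96.6 (SD, n = 3) in the Crabp1 gate, Sdc4, a syndecan, had 202 ± 33.4 (SD, n = 4) in the Upk3b gate, and Sulf2, a sulfatase, had 65.0 ± 5.15 (SD, n = 3) in the Crabp1 and 49.8 ± 2.24 (SD, n = 4) in the Tnnt2 gate. No gene of these lists was called between Ho and Wt in the Tnnt2, Cdh5, Hapln1, Crabp1 or Upk3b gate by edgeR. In the Epcam gate Ho2 is the only Ho library and the 2 Wt libraries alone supply the spread. The makeup of that gate also differed between libraries, so the values of the target genes Etv5 and Ccnd1 there are given without a call. Etv5, an ETS factor gene, had 15.9, 5.65 and 101 CPM in Wt1, Wt2 and Ho2, and Ccnd1, the cyclin D1 gene, had 46.7, 38.9 and 157 CPM. The fitted log2 fold changes were 3.21 and 1.99, and 3.16 and 2.04 with halved gate limits. With doubled limits that of Etv5 was 3.25.

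The genes most like each member over the 22 sums were those with the highest Pearson correlation among 12969 or 12970 genes, on the same scale as above. For Fgf9 they were Ammecr1, Anapc13 and Rhbdl1 (0.94, 0.93 and 0.92), for Fgf8 2610204G07Rik, Npm3 and Sptb (0.88, 0.86 and 0.82), and for Fgf10 Armh4, Pcp4l1 and Col12a1 (0.83, 0.82 and 0.80). For Fgfr1 they were Smad5, Rara and Mad2l2 (0.93, 0.91 and 0.90), for Fgfr2 Rac3, Pex2 and Ormdl1 (0.96, 0.93 and 0.93), and for Fgfr3 P4ha2, Dlg2 and Rala (0.94, 0.93 and 0.93). The Sprouty genes were most like Golm1, Plekhh2 and Ttc39c for Spry1 (0.96, 0.96 and 0.95), Itprip, Bckdhb and Hsd17b7 for Spry2 (0.85, 0.78 and 0.78), and Ppt2 and Ppp1r15a for Spry4 (0.87 and 0.87). None of these genes was among the nearest of more than 1 member.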

How the data were processed

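Hearts at E10.5 were measured by droplet single-cell RNA sequencing in 2 Wt and 2 Ho libraries. The authors made the UMI counts with Cell Ranger 6.1.1 on mm10 (GRCm38) and deposited them per gene and cell as raw counts, without normalization; gene and barcode names were the only other columns. Per the labels' tool list Seurat 4.1.0 was used downstream, and its output was not used here.

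Cells with over 20% mitochondrial counts, outside 500 to 50000 UMIs or outside 500 to 6000 detected genes were removed, as were the highest Scrublet doublet scores (scanpy 1.11.5) at 0.8% per 1000 cells, 7.73%, 6.09%, 5.93% and 5.17% of Wt1, Wt2, Ho1 and Ho2, as the automatic threshold was uneven. A cell entered a gate with at least 2 UMIs of the marker and, per 10000 UMIs, 10 of Tnnt2, 1 of Cdh5, 3 of Hapln1, 5 of Crabp1, 1 of Upk3b or 1 of Epcam. Counts were summed per library and gate. Total depth was 109893733, 117034633, 127018819 and 107377100 UMIs in the files of Wt1, Wt2, Ho1 and Ho2.

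edgeR 4.0.16 in R 4.3.3 (quasi-likelihood test, TMM, filterByExpr, Benjamini-Hochberg over all genes tested, threshold 0.05) set each gate against the mean of the others with the library as a block, and Ho against Wt within gates without one. Intervals of shares are exact (Clopper-Pearson, 95%), the limit for 0 is 3 counts, and both cover counting error only. Positions are from GENCODE M21, which holds 99.8% of the 32285 identifiers. On simulated sums with 200 changed genes, a log2 fold change of 1 between Ho and Wt was recovered for 118 in the Cdh5 gate (11733 genes), 155 in the Hapln1 gate (12483 genes) and 6 in the Crabp1 gate (9649 genes), and 0.5 for 6, 59 and 0. At 1, 6, 5 and 0 unchanged genes were called.

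Genes named are the 9 members, the 3 most correlated with each (mean CPM of at least 1), the 3 of highest level in each list, and list genes called between Ho and Wt (2, in the Epcam gate). Of the genes so named, 2 are not reported here. Ho against Wt in the Upk3b and Epcam gates was fitted the same way outside the planned tests. The members and lists were chosen with earlier results of these data known. Alternatives were DESeq2 1.42.0, RLE normalization, no filter, other gate limits, cells of several gates kept, at most 10% mitochondrial counts, doublets kept, other blocks, each library left out, and thinning to 5000 UMIs or none. Counting cells that met the Cdh5 and Hapln1 gates in the Cdh5 gate, and crossed replicate numbers, were added after the data were seen. Within genotypes, same-numbered libraries had correlated deviations of -0.11, -0.11 and -0.015 in the Tnnt2, Cdh5 and Hapln1 gates, so the numbers were not taken as pairs.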

Additional observations from a re-analysis of the deposited data

Results flagged for a closer look

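In 36 groups of 4 libraries, formed by a member and a gate, the highest and the lowest value were set against the rest, and chance marks about 1 in 20 such groups. In 2 of them 1 library stood far from the others. Fgf10 in the Hapln1 gate was highest in Ho1 with 0.0674 CPM, which was 1 UMI, and was 0 in the other libraries. Fgfr1 in the Upk3b gate was lowest in Ho1 with 2.14 CPM from 5 UMIs, against 7.41, 8.32 and 7.36 CPM in Wt1, Wt2 and Ho2 from 15, 27 and 28 UMIs.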

How the results depend on the processing

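Precision is limited by 2 libraries per genotype, by few cells in the Upk3b, Crabp1 and Epcam gates and by ligand genes near 0 in endothelial and cushion gates. Of 750 fold changes of members against the other gates recomputed under the alternatives, 691 kept direction and side of the threshold, 20 were gained as calls, 16 were lost and 23 reversed. Of 245 between Ho and Wt outside the Tnnt2 gate, 220 kept both, 21 reversed and 4 were gained as calls, all of Fgf8 in the Epcam gate, where Wt1 and the 0 UMIs of Ho2 set the result. Of 126 in the Tnnt2 gate, where no test is made, 14 turned sign and 4 moved by more than the spread between libraries. No member was called in the Cdh5, Hapln1, Crabp1 or Upk3b gate under any alternative run. The cause of each change was not tested.

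Genes called between Ho and Wt numbered 133 in the Cdh5, 152 in the Hapln1 and 21 in the Crabp1 gate and 6 in the interaction without a filter (0, 3, 0 and 0 with it), 3 and 13 in the Cdh5 and Hapln1 gates with DESeq2, and 18 in the Crabp1 gate with doubled limits. In the Upk3b gate (3) they numbered 90 without a filter, 8 with doubled limits, 28 with cells of several gates kept and 1 with doublets kept, and from 8 to 88 with any 1 library left out (8 without Wt1, 20 without Wt2, 88 without Ho1, 61 without Ho2). In the Epcam gate (85) they numbered 219 with RLE normalization, 304 without a filter, 19 with DESeq2, 25 with doubled and 0 with halved limits, 221 with cells of several gates kept and 189 with doublets kept, with 1 FGF member, Fgf8, under RLE, without a filter, with cells of several gates kept and with doublets kept. With any 1 library left out they ranged from 0 to 342 in the Cdh5 gate (342 without Ho2, 60 without Ho1), from 3 to 131 in the Hapln1 gate (131 without Ho1, 111 without Ho2, 33 without Wt1) and from 0 to 88 in the interaction (88 without Wt2). Genes called in the Crabp1 gate against the others ranged from 2426 without Wt1 to 4605 with any 1 library left out. Of all 9 members, ligands included, the main fit called 4 higher and 2 lower in the Epcam gate (24.5% and 23% of all genes). It called 3 higher and 0 lower in the Crabp1 gate (15.8% and 19.9%). With any 1 library left out, the members called in the Epcam gate ranged from 3 without Wt1 to 7. Halved limits gave 5 members in the Crabp1 gate. Shares of all genes under these alternatives are not given, so the counts are not read further.

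With the replicate number as a block, the Hapln1 gate had 61 genes called, the Upk3b gate 83 and the Cdh5 gate 0, and Fgfr1 in the Cdh5 gate went to 0.029. The numbers do not pair the libraries. With crossed numbers as the block, the counts were 46, 73 and 3, and Fgfr1 and Spry1 in the Cdh5 gate had 0.0063 and -0.026. No member was called with either block. With 1 Ho library the Crabp1 and Epcam gates could not be fitted with a block or without a Wt library or Ho2.

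In the Tnnt2 gate the fold change of Fgfr1 was 0.12 with doubled limits and 0.13 with doublets kept, where that of Fgfr2 was -0.046, and Spry4 ranged from -0.080 without Wt2 to 0.12 with any 1 library left out. The share of Tnnt2 gate cells with Fgf9 in Wt1, Wt2, Ho1 and Ho2 was 2.49%, 2.84%, 4.64% and 4.42% at 5000 UMIs and 5.30%, 7.59%, 11.5% and 11.2% without thinning.

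Signs also turned elsewhere, mostly for fold changes that did not pass the test. A call in both directions was made for Fgfr2 in the Hapln1 gate, higher at 0.47 and, with cells of several gates kept, lower at -0.36 (adjusted p-value 0.0347, edgeR). Fitted values of the ligand genes depend on the prior count. Against the other gates, these were Spry2 in the Upk3b gate at 0.022 and Fgf10 in the Epcam gate at 0.21 without the library block; Fgfr2 in the Crabp1 gate at -0.39, Spry4 in the Upk3b gate at -0.065 and Fgf10 in the Epcam gate at 0.093 with doubled limits; Spry4 in the Upk3b gate at -0.048 with halved limits; and Fgf10 in the Epcam gate at 0.51 with cells of the Cdh5 and Hapln1 gates counted in the Cdh5 gate. With cells of several gates kept, they were Spry2 at -0.073 in the Hapln1 gate, Fgf8 at 0.22 in the Crabp1 and 0.19 in the Upk3b gate, and Spry4 at -0.10 in the Upk3b gate. Between Ho and Wt in the Cdh5 gate, Fgfr1 was at 0.0025 with DESeq2, 0.096 with doubled and 0.27 with halved limits, 0.034 with cells of several gates kept, where Fgfr2 was at -0.0064, and 0.037 with cells of the Cdh5 and Hapln1 gates counted in the Cdh5 gate, where it was -0.0096 in the Hapln1 gate. Fgfr2 and Spry1 were at -0.18 and -0.0083 with doublets kept. In the Crabp1 gate, Fgfr2 and Spry1 were at -0.33 and -0.20 with halved limits, and Fgfr1 and Spry1 at -0.11 and -0.25 with cells of several gates kept. With any 1 library left out, the ranges against the other gates were -1.38 to 0.43 for Fgf8, -0.15 to 0.10 for Spry2 and -0.49 to 0.41 for Spry4 in the Upk3b gate. In the Epcam gate they were -1.33 to 6.12 for Fgf8, -0.51 to 2.42 for Fgf9, -1.32 to 0.27 for Fgf10, -0.078 to 0.51 for Fgfr1 and -0.45 to 0.11 for Spry2, of which Fgf8, Fgf9 and Fgfr1 turned without Wt1, where the calls of Fgf8 and Fgf9 as higher were lost. Between Ho and Wt they were -0.22 to 0.29 for Fgfr1, -0.33 to 0.41 for Fgfr2 and -1.08 to 0.95 for Spry1 in the Cdh5 gate, and -0.61 to 0.13 for Spry1 in the Hapln1 gate.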

Other observations

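Receptor genes also differed within the Tnnt2 gate, in the divisions by Myl2 and Isl1 that were chosen after values were seen and carry no test. Fgfr2 had 4.98, 5.22, 6.09 and 5.72 CPM in Myl2-rich cells of Wt1, Wt2, Ho1 and Ho2 and 12.0, 14.2, 13.7 and 12.9 CPM in the others, the opposite order to Fgf9. Fgfr3 had 7.85, 6.79, 2.52 and 4.75 CPM in cells at or over the Isl1 limit, from 23, 26, 7 and 24 UMIs, and 1.29, 0.667, 1.37 and 1.63 CPM in those under it. Spry2 had 43.0, 63.8, 59.7 and 57.7 CPM in the first and 33.9, 39.5, 42.2 and 48.3 CPM in the second. In each library Fgfr3 and Spry2, like Fgf8, were higher in Isl1-rich cells.

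Cells that met no gate held Fgfr1 at 28.5, 25.3, 20.4 and 24.9 CPM and Fgfr2 at 25.5, 34.1, 14.4 and 28.1 CPM. Fgf10 had 1.93, 2.18, 0.376 and 2.68 CPM there, with Ho1, which had few Crabp1 gate cells, lowest. Over all cells used, Fgf9 had 3.99, 3.42, 4.92 and 6.02 CPM.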
